A study of Mus musculus with 16 samples.

Results

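C-type lectin receptors of myeloid cells were followed in mouse bone marrow derived macrophages (BMDMs) through 10 genes: Clec4a1, Clec4a2, Clec4a3, Clec4b1, Clec4d, Clec4e, Clec4n, Clec5a, Clec7a and Clec10a. They were picked by symbol out of 22287 genes of the deposited count table, and all 10 passed the filter on low counts that 12514 genes passed. Bone marrow cells of C57BL/6J mice, 8 weeks old by the labels, were cultured for 7 days with GM-CSF (GM) or M-CSF (M), on tissue culture treated plastic (TC) or on untreated polystyrene (noTC). They were then kept at steady state with vehicle or challenged with LPS for 3 h, which gave the groups M-TC, M-noTC, GM-TC and GM-noTC and the same 4 with the ending -LPS. Each of the 8 groups had 2 replicates, which the study calls biological, so 16 libraries were measured. No group carries a transgene or deletion, and the labels do not say whether replicates came from separate mice, so that p-values measure the spread between these libraries, which may be technical.

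C-type lectin receptors read sugars, glycolipids and other ligands on microbes and damaged cells. Clec7a encodes Dectin-1, a receptor for fungal beta-glucan with its own activating motif, while Clec4n (Dectin-2), Clec4d (MCL) and Clec4e (Mincle, a receptor for mycobacterial cord factor) signal through the adaptor Fcer1g, and Clec5a through Tyrobp. From these adaptors the kinase Syk leads to the Card9, Bcl10 and Malt1 complex and NF-kB. Clec4a2 encodes the inhibitory receptor DCIR, which recruits the phosphatases Ptpn6 and Ptpn11 through a cytoplasmic motif, and Clec4a1 and Clec4a3 are its close relatives. Clec4b1 encodes the activating receptor DCAR, and Clec10a encodes the galactose-binding lectin MGL1 of macrophages and dendritic cells. In the RefSeq gene order, 9 of the 10 genes are on chromosome 6, where Clec4n, Clec4d and Clec4e follow each other, as do Clec4a1 and Clec4a3, and Clec4b1 and Clec4a2. Clec10a is on chromosome 11 beside Mgl2, a second galactose-binding lectin.

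Total counts per library lay between 17527802 and 31458363, and 3 counts in a library corresponded to 0.0697 to 0.174 CPM (counts scaled to library size) after TMM scaling, a floor that covers counting error only. A member was called changed when edgeR's quasi-likelihood test gave a Benjamini-Hochberg (BH) adjusted p under 0.05 over all 12514 genes and the fold change was above 1.5. All 10 macrophage markers had counts in all groups, with a summed level of 20800 to 48010 CPM per library, so the cell type label held. The 10 dendritic cell markers summed to 1111 to 1310 CPM in GM and 74.7 to 117 CPM in M libraries, with Itgax at means of 916 to 983 CPM in the GM groups and 15.5 to 56.5 CPM in the M groups, Ccr7 at 9.41 CPM in GM-TC and Flt3 at or below 0.41 CPM in all groups. The 10 neutrophil markers summed to 13.2 to 44.8 CPM in GM and 0.337 to 2.16 CPM in M, with Ly6g at 0 in all M groups. The 9 mast cell and basophil markers summed to 4.95 to 8.76 CPM in GM and 0.411 to 0.606 CPM in M at steady state, and to 73.1 to 77.2 and 43.7 to 45.9 CPM upon LPS, where Hdc alone, the histidine decarboxylase gene, had means of 70.76 and 70.98 CPM in GM on TC and noTC and 44.64 and 45.49 CPM in M. Heart muscle markers summed to 24.4 to 65.9 CPM in TC libraries without LPS, and the highest sum elsewhere was 1.05 CPM. In these bulk libraries, fewer cells of a type and less RNA per cell cannot be told apart.

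**Figure D1:**
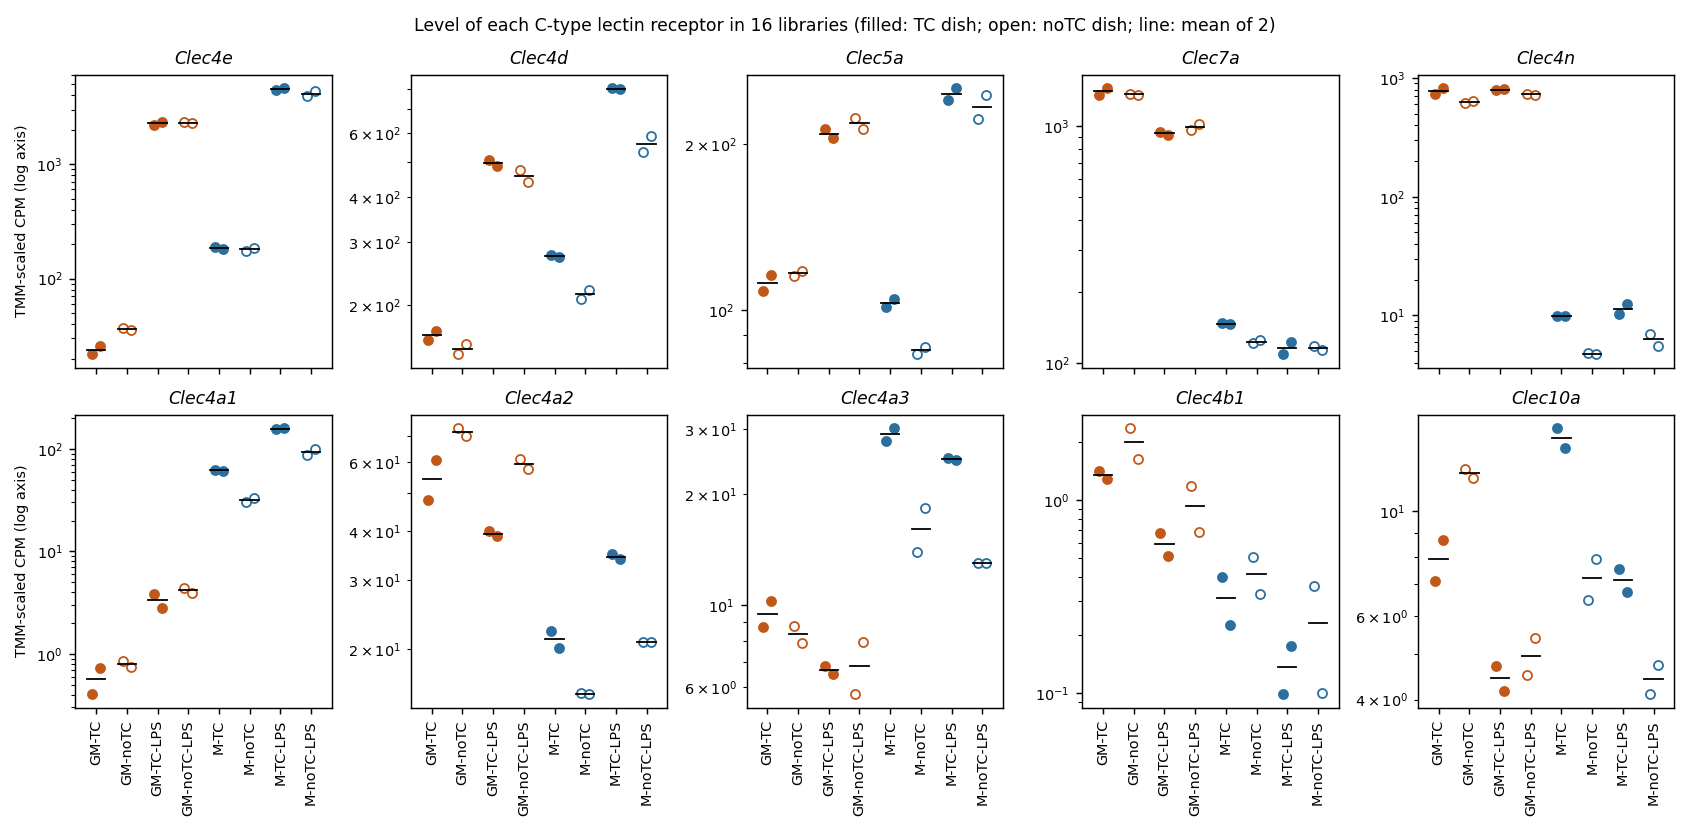
CPM after TMM scaling (log axes that differ between panels) of the 10 receptors in each of 16 libraries, with GM in orange, M in blue, TC filled and noTC open, and a line at the mean of the 2 replicates. Clec4n and Clec7a separated GM from M at every dish and treatment, and Clec4e separated LPS from steady state.

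The receptors covered wide and unequal ranges over the 8 groups. Clec4a1 varied the most, with a mean of 158 CPM in M-TC-LPS that was 279.9-fold that of GM-TC, and Clec4e and Clec4n followed with ratios of 191 and 168 between their highest and lowest groups. Clec5a varied the least, by a ratio of 2.94 between M-TC-LPS and M-noTC. Levels of different genes were compared per kb of exon, with lengths from the GENCODE annotation in hand. By CPM per kb, Clec4n (44.1%) and Clec7a (42.5%) made up most of the summed receptor level of GM-TC, which was 1249 CPM per kb. In M-TC the sum was 372 CPM per kb, and Clec4d held 46.0% of it, Clec7a 14.9%, Clec4a1 10.7% and Clec4e 10.03%. Upon LPS the sum was 1763 CPM per kb in GM-TC-LPS and 1662 CPM per kb in M-TC-LPS, where Clec4e held 25.95% and 54.8%. On noTC dishes Clec7a (45.7%) stood before Clec4n (39.2%) in GM-noTC, and the largest shares elsewhere were those of Clec4d (47.4%) in M-noTC, of Clec4n (29.7%) and Clec4e (26.8%) in GM-noTC-LPS and of Clec4e (60.6%) in M-noTC-LPS.

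**Figure D2:**
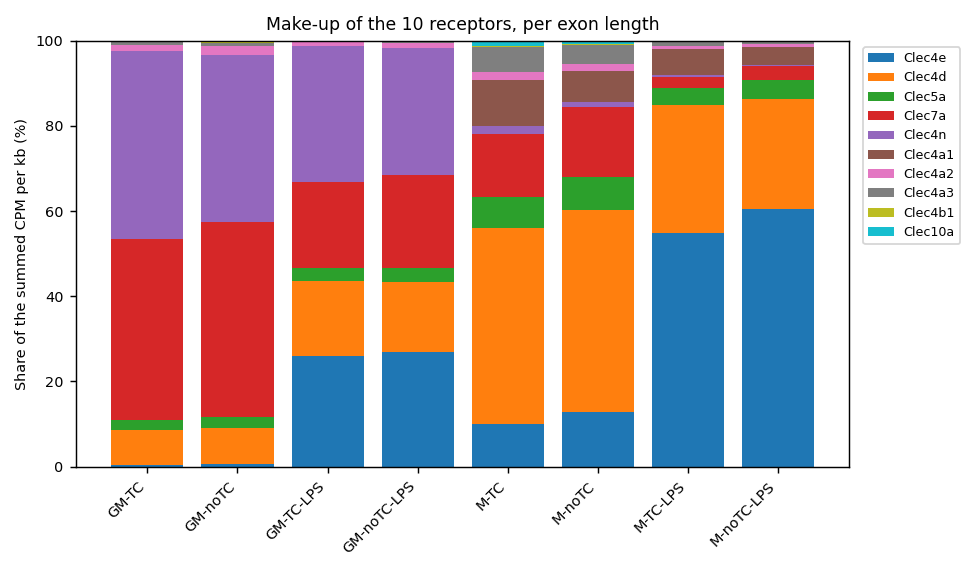
Share (%) of each receptor in the summed CPM per kb of exon of the 10 receptors, stacked from 0 to 100% for the 8 groups, from the means of 2 replicates. Clec4n and Clec7a filled most of GM-TC, Clec4d was the largest share of M-TC (46.0%), and Clec4e was the largest share of M-TC-LPS (54.8%).

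The 250 bases upstream of the start of 3 receptors are shown: Clec4e and its neighbour Clec4d because both had higher levels upon LPS, and Clec7a because it differed between GM and M. The sequences are from RefSeq on GRCm38.p6, written 5′ to 3′ in the direction of the gene, and the RefSeq promoter table held 8 of the 10 receptors, without Clec4n and Clec10a. They cover chr6:123261857-123262106 on the + strand for Clec4d, chr6:123289872-123290121 on the - strand for Clec4e and chr6:129472780-129473029 on the - strand for Clec7a. Capitals mark AGAGGAA, a purine-rich element of the type bound by the myeloid factor PU.1, and in Clec4e also TTGCNNAA, a C/EBP type element, on either strand.
Clec4d: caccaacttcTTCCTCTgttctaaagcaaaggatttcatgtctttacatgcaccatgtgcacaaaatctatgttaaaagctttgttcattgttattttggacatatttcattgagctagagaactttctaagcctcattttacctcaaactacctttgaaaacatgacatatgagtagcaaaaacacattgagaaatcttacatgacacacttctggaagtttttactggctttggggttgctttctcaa
Clec4e: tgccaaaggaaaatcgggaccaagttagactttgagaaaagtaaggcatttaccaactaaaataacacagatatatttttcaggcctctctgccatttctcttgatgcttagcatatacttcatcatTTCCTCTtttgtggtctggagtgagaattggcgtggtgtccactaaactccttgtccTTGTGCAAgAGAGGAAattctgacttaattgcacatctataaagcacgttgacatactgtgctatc
Clec7a: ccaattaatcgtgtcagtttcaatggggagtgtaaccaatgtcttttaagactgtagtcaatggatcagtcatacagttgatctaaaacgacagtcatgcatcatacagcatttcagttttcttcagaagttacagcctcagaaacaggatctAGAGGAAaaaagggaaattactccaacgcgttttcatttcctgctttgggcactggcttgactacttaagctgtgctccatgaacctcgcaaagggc
Of the 8 receptors, 7 held AGAGGAA on either strand in these 250 bases (Clec4a1, Clec4a3, Clec4b1, Clec4d, Clec4e, Clec5a and Clec7a), and 9.85% of 27025 genes in the table did. This element was chosen after the sequences had been seen, and several of these receptors are close copies of each other. The share over all genes is therefore not a test. In Clec4e it lay at -57 to -51 and at -123 to -117 from the start, and in Clec4d only at -240 to -234. TTGCNNAA was found in Clec4e alone (10.8% of genes), where it lay at -66 to -59 and shared no base with AGAGGAA, and TGANTCA (AP-1, 7.82%) in none of the 8. Of longer elements, GAAA and GAAA separated by 2 free bases, of the interferon-stimulated type, were found in Clec4b1 alone (3.46% of genes), and GGGA and TTTCC separated by 1 free base, of the NF-kB type, in none of the 8 (0.414%). Such matches describe letters and not binding.

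The comparison of GM with M cells asked how the receptors differed between the growth factor cultures. By the study's methods, GM cultures were also seeded at a higher density than M cultures. In every comparison of GM with M, growth factor and seeding density therefore cannot be told apart. On TC dishes at steady state, 4 receptors were higher and 5 lower in GM, or 9 of 10, where 33.8% of all genes tested were called. Clec4n and Clec7a were far higher in GM, and Clec4a1 and Clec4e far higher in M. Clec4n had 736 and 827 CPM in GM-TC and 9.97 and 9.80 CPM in M-TC, with a log2 fold change of 6.31 ± 0.08 (SE; adjusted p = 1.06e-23). Clec7a had 1355 and 1449 CPM in GM-TC and 147 and 146 CPM in M-TC, with a log2 fold change of 3.26 ± 0.06 (adjusted p = 1.17e-21). No library of M reached any library of GM for either gene, at either dish or treatment. For how many of all genes this holds was not computed.

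Clec4e and Clec4d, which also signal through Fcer1g, had the opposite order. Clec4e had 21.8 and 25.6 CPM in GM-TC and 189 and 181 CPM in M-TC, with a log2 fold change of -2.96 ± 0.07 (adjusted p = 1.86e-19). Clec4d had 160 and 169 CPM in GM-TC and 275 and 271 CPM in M-TC, with a log2 fold change of -0.73 ± 0.06 (adjusted p = 3.41e-10). Both were thus higher in M, although they stand beside Clec4n in the genome. The Tyrobp-coupled Clec5a had 108 and 116 CPM in GM-TC and 101 and 104 CPM in M-TC, and its log2 fold change of 0.12 ± 0.06 did not pass (adjusted p = 0.08).

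Within the DCIR family the direction differed from gene to gene. Clec4a1 had 0.404 and 0.725 CPM (8 and 18 counts) in GM-TC and 62.6 and 60.9 CPM in M-TC, with a log2 fold change of -6.72 ± 0.16 (adjusted p = 8.43e-20). Clec4a3 had 8.73 and 10.2 CPM in GM-TC and 27.8 and 30.2 CPM in M-TC, with a log2 fold change of -1.61 ± 0.13 (adjusted p = 2.64e-10). Clec4a2, the inhibitory receptor DCIR itself, went the other way, with 48.0 and 60.7 CPM in GM-TC, 22.2 and 20.1 CPM in M-TC and a log2 fold change of 1.37 ± 0.09 (adjusted p = 6.32e-12). These genes and Clec4b1 are close copies of each other, and the authors' counting could have split shared reads between them, so their values are less certain than the rest. Clec4b1 was rare, with 60 counts in the GM-TC libraries and 16 in the M-TC libraries. Its ratio was 4.35 (95% exact interval 2.47 to 8.09, counting error only), and its log2 fold change of 2.10 ± 0.48 passed (adjusted p = 0.000684).

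Clec10a depended on the dish. On TC it had 7.12 and 8.70 CPM in GM and 14.96 and 13.6 CPM in M, with a log2 fold change of -0.84 ± 0.13 (adjusted p = 8.35e-06). On noTC it had 12.3 and 11.7 CPM in GM and 6.50 and 7.92 CPM in M, with a log2 fold change of 0.72 ± 0.13 (adjusted p = 3.71e-05). It was therefore the only one of the 10 receptors called in opposite directions on the 2 dishes at steady state.

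**Figure D3:**
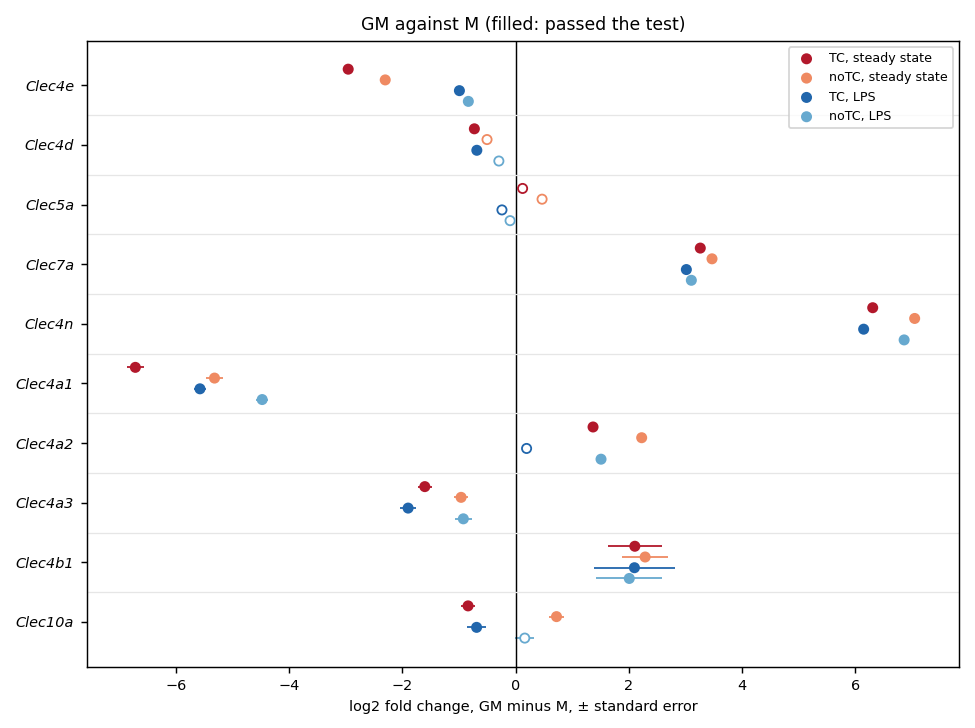
Log2 fold change of GM over M (x axis, ± SE) for the 10 receptors on TC and noTC dishes, at steady state and upon LPS, with filled points for calls and open points otherwise. Clec4n lay between 6.15 and 7.05 and Clec4a1 between -6.72 and -4.48 in the 4 comparisons.

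Under the other 3 conditions Clec4n, Clec7a, Clec4a1 and Clec4a3 kept their direction. On noTC dishes at steady state 5 receptors were higher and 3 lower in GM, where 34.2% of genes were called, upon LPS on TC dishes 3 were higher and 5 lower (40.8%), and upon LPS on noTC dishes 4 were higher and 3 lower (39.7%). Clec4n was called at 7.05 ± 0.09 in noTC, 6.15 ± 0.09 in TC-LPS and 6.86 ± 0.09 in noTC-LPS, and Clec7a at 3.47 ± 0.06, 3.01 ± 0.06 and 3.10 ± 0.06. Clec4a1 had log2 fold changes of -5.32 ± 0.15, -5.58 ± 0.11 and -4.48 ± 0.11 there, and Clec4a3 of -0.96 ± 0.13, -1.90 ± 0.14 and -0.92 ± 0.15. Clec4a2 was called on noTC (2.22 ± 0.09) and upon LPS on noTC (1.51 ± 0.09), but had 0.19 ± 0.09 upon LPS on TC (adjusted p = 0.0609). Clec10a was called lower upon LPS on TC (-0.69 ± 0.16) and not on noTC (0.16 ± 0.17, adjusted p = 0.425). Clec5a had 0.47 ± 0.06 on noTC and, upon LPS, -0.24 ± 0.06 on TC and -0.10 ± 0.06 on noTC, none past the fold limit. The highest GM library thus had 4.36 CPM of Clec4a1 and the lowest M library 30.5 CPM. With library size only and no TMM factor, the median of all genes on noTC dishes at steady state moved to -0.29, and 4 receptors were higher and 4 lower there, with Clec10a (0.43) no longer called and Clec4d (-0.80) called. With TMM, Clec4d passed the fold limit on TC dishes alone, and had -0.51 ± 0.06 on noTC and -0.30 ± 0.06 on noTC with LPS. Clec4b1 had log2 fold changes of 2.29 ± 0.41 in noTC, 2.10 ± 0.72 in TC-LPS and 2.01 ± 0.58 in noTC-LPS, all called. Its M-TC-LPS libraries held only 2 and 3 counts, and the ratio of 24 to 5 counts had an exact 95% interval of 1.65 to 14.8. The call of Clec4b1 upon LPS was lost on TC without GM-TC-LPS replicate 1 (adjusted p = 0.0687) or M-TC-LPS replicate 1 (adjusted p = 0.11), and on noTC without GM-noTC-LPS replicate 1 (adjusted p = 0.0661) or M-noTC-LPS replicate 2 (adjusted p = 0.0802). The dendritic cell and neutrophil marker sums given above were also higher in GM, and their part in these differences was not tested.

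The response to LPS after 3 h was the next comparison, and Clec4e had the largest change of the 10. All 8 genes of a check list of LPS targets, such as Tnf and Il6, rose in each of the 4 cultures. In GM on TC dishes 4 receptors rose and 3 fell, where 41.6% of genes were called, and on noTC dishes 4 rose and 2 fell (41.1%). In M on TC dishes 5 rose and 1 fell (51.7%), and on noTC dishes 4 rose and 1 fell (47.8%). These counts rest on the scaling: with library size only and no TMM factor, the median of all genes moved to between -0.83 and -0.53, and the receptors that rose and fell were 3 and 5 in GM on either dish, 2 and 5 in M on TC and 4 and 4 in M on noTC.

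Clec4e, the Mincle gene whose promoter is shown above, had 2189 and 2352 CPM in GM-TC-LPS, with a log2 fold change of 6.58 ± 0.08 over GM-TC (adjusted p = 5.81e-25). It had 2329 and 2275 CPM in GM-noTC-LPS against 36.9 and 35.8 CPM in GM-noTC, with a log2 fold change of 5.99 ± 0.07. In M it had 4406 and 4638 CPM in M-TC-LPS, with a log2 fold change of 4.61 ± 0.07 over M-TC, and 3908 and 4313 CPM in M-noTC-LPS against 176 and 184 CPM in M-noTC, with a log2 fold change of 4.52 ± 0.07. The relative rise was larger in GM, by 1.96 ± 0.09 on TC (adjusted p = 1.7e-13) and 1.47 ± 0.09 on noTC (adjusted p = 1.25e-11), while the level reached upon LPS was higher in M, with log2 fold changes of GM over M of -0.99 ± 0.06 on TC and -0.84 ± 0.06 on noTC.

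Its neighbour Clec4d rose from the steady state levels above to 508 and 487 CPM in GM-TC-LPS and 804 and 796 CPM in M-TC-LPS. On noTC it rose from 146 and 156 to 474 and 441 CPM in GM and from 208 and 220 to 532 and 592 CPM in M. Its log2 fold changes were close to each other in the 4 cultures, at 1.59 ± 0.06 and 1.60 ± 0.06 in GM on TC and noTC and 1.55 ± 0.06 and 1.39 ± 0.06 in M, and no difference between GM and M in this response was called (0.04 ± 0.08 on TC and 0.21 ± 0.08 on noTC). The third gene of the row, Clec4n, had 794 and 806 CPM in GM-TC-LPS and 740 and 718 CPM in GM-noTC-LPS, with log2 fold changes of 0.03 ± 0.06 (adjusted p = 0.647) and 0.22 ± 0.06 (adjusted p = 0.00355), both under the fold limit. In M it had 10.3 and 12.4 CPM in M-TC-LPS and 7.03 and 5.54 CPM in M-noTC-LPS, with log2 fold changes of 0.19 ± 0.11 and 0.40 ± 0.13 that were not called either. With library size only, Clec4n was called lower in M-TC-LPS, at -0.63 ± 0.11 (adjusted p = 1.08e-05). After a subtraction from the steady state noTC libraries that is described with the dishes, it was called higher in M-noTC-LPS, at 1.04 ± 0.14 (adjusted p = 1.26e-06), and the difference between GM and M in the response on noTC was called at -0.82 ± 0.16 (adjusted p = 0.000224).

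Clec5a rose in all 4 cultures. It had 213 and 205 CPM in GM-TC-LPS and 242 and 254 CPM in M-TC-LPS, with log2 fold changes of 0.90 ± 0.06 (adjusted p = 6.14e-12) and 1.27 ± 0.06 (adjusted p = 8.17e-15). On noTC it had 224 and 214 CPM in GM-noTC-LPS and 222 and 246 CPM in M-noTC-LPS, against 115 and 118 CPM and 83.0 and 85.7 CPM at steady state, with log2 fold changes of 0.91 ± 0.06 and 1.47 ± 0.06. With library size only its log2 fold changes were 0.44 in M-TC, 0.42 in GM-TC and 0.40 in GM-noTC, under the fold limit.

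Clec7a, in contrast, had 947 and 919 CPM in GM-TC-LPS, with a log2 fold change of -0.59 ± 0.05 (adjusted p = 2.11e-09) that only just passed the fold limit at 1.503-fold. It did not pass that limit with DESeq2 or its size factors (-0.58), and it had -0.54 without GM-TC replicate 2 and -0.57 without GM-TC-LPS replicate 2. In GM-noTC-LPS it had 966 and 1019 CPM, in M-TC-LPS 109 and 122 CPM and in M-noTC-LPS 118 and 113 CPM, with log2 fold changes of -0.45 ± 0.05, -0.34 ± 0.06 and -0.09 ± 0.06 that were not called. Its level upon LPS in GM remained above that of any M library.

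**Figure D4:**
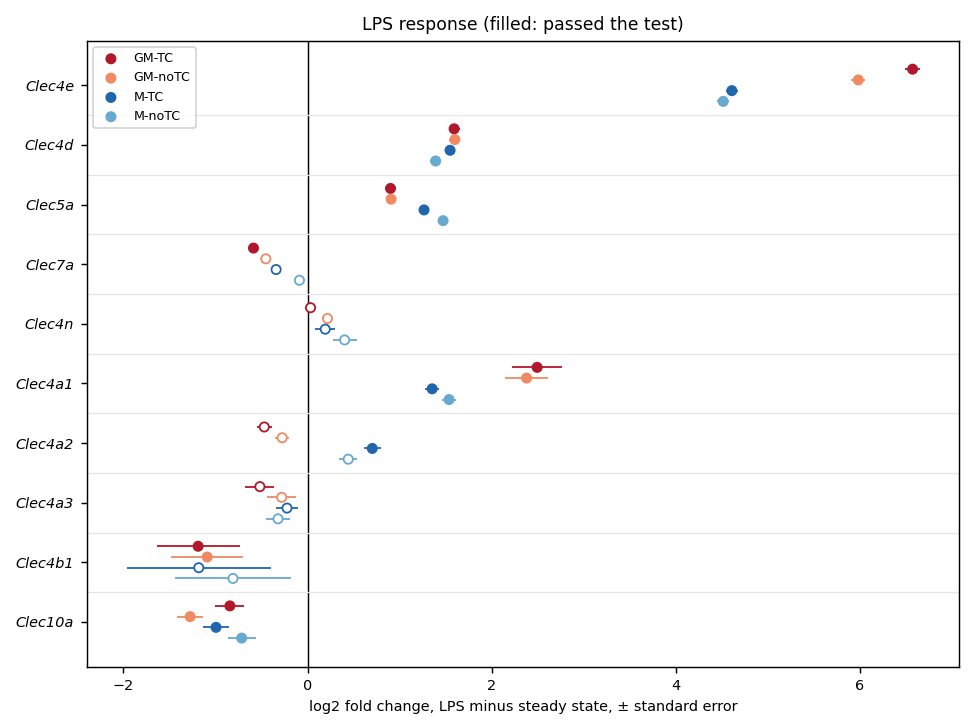
Log2 fold change upon LPS (x axis, ± SE) of the 10 receptors in the 4 cultures, with GM in red and M in blue shades, and filled points for calls and open points otherwise. Clec4e lay between 4.52 and 6.58, Clec4d between 1.39 and 1.60, and Clec10a was called lower in all 4 cultures.

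The DCIR family split again upon LPS. Clec4a1 rose in all 4 cultures. In GM it reached 3.88 and 2.79 CPM in GM-TC-LPS and 4.36 and 3.97 CPM in GM-noTC-LPS, with log2 fold changes of 2.50 ± 0.28 and 2.38 ± 0.23. In M it reached 156 and 160 CPM in M-TC-LPS and 86.7 and 98.7 CPM in M-noTC-LPS, with log2 fold changes of 1.35 ± 0.07 and 1.54 ± 0.08. With library size only the rise in M-TC was 0.53, under the fold limit.

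Clec4a2 had responses of opposite sign in the 2 kinds of cells. In M-TC-LPS it had 34.9 and 33.9 CPM, with a log2 fold change of 0.70 ± 0.09 (adjusted p = 5.15e-07), and in M-noTC-LPS 20.9 and 20.9 CPM, with a log2 fold change of 0.44 ± 0.10 that was under the fold limit. In GM it had 40.0 and 38.8 CPM in GM-TC-LPS and 61.1 and 57.6 CPM in GM-noTC-LPS, with log2 fold changes of -0.47 ± 0.08 and -0.28 ± 0.08, also under the limit. The difference between GM and M was called on TC (-1.17 ± 0.12, adjusted p = 9.19e-08) and on noTC (-0.72 ± 0.13, adjusted p = 8.94e-05). With library size only the value in M-TC was -0.12 (adjusted p = 0.211) and the value in GM-TC was -0.95, so the direction in M depended on the scaling; the difference between GM and M on noTC was then -0.50, under the fold limit. Without GM-TC replicate 1, Clec4a2 (-0.61) and Clec4a3 (-0.60) were called lower in GM-TC.

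Clec4a3 had 6.82 and 6.50 CPM in GM-TC-LPS, 5.73 and 7.94 CPM in GM-noTC-LPS, 25.1 and 24.6 CPM in M-TC-LPS and 12.99 and 13.02 CPM in M-noTC-LPS, and its log2 fold changes of -0.52 to -0.22 were not called. Clec4b1 fell in GM, with 0.672 and 0.511 CPM in GM-TC-LPS and 1.18 and 0.684 CPM in GM-noTC-LPS. Its log2 fold changes were -1.19 ± 0.45 (adjusted p = 0.0248) and -1.09 ± 0.39 (adjusted p = 0.0176), and the calls were lost with DESeq2 (adjusted p = 0.0517 and 0.0512). They were also lost in GM-TC without any 1 of the 4 libraries (adjusted p = 0.0512 to 0.145), and in GM-noTC without GM-noTC replicate 1 (adjusted p = 0.189) or GM-noTC-LPS replicate 2 (adjusted p = 0.186). In M the counts were 5 against 16 on TC and 9 against 29 on noTC, and the ratios of 0.431 (exact 95% interval 0.124 to 1.23) and 0.571 (0.238 to 1.24) do not separate the groups at this depth.

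The galactose-binding lectin gene Clec10a fell in all 4 cultures. It had 4.70 and 4.18 CPM in GM-TC-LPS and 4.50 and 5.38 CPM in GM-noTC-LPS, with log2 fold changes of -0.84 ± 0.16 (adjusted p = 7.1e-05) and -1.28 ± 0.14 (adjusted p = 6.96e-08). In M it had 7.53 and 6.74 CPM in M-TC-LPS and 4.11 and 4.74 CPM in M-noTC-LPS, with log2 fold changes of -0.99 ± 0.14 (adjusted p = 9.67e-07) and -0.72 ± 0.15 (adjusted p = 0.000253). The libraries with and without LPS did not overlap in any culture, and the share of all genes without overlap was not computed. The call in M-noTC was lost without M-noTC replicate 2, at -0.54 (adjusted p = 0.0119), under the fold limit. Of the mast cell and basophil markers, 4 were tested, and Hdc rose in all 4 cultures, while Gata2 fell in GM-noTC and 3 of the 4 were not called in M on either dish. The heart muscle markers were near 0 in all LPS libraries. Their part in the LPS responses was not tested.

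Differences in the LPS response between GM and M were called for 3 of 10 receptors on TC (23.9% of genes) and for 3 on noTC (20.6%): Clec4e and Clec4a1 with a larger relative rise in GM and Clec4a2 with the opposite sign. For Clec4a1 the difference was 1.14 ± 0.30 on TC (adjusted p = 0.00434) and 0.84 ± 0.26 on noTC (adjusted p = 0.0136), from 8 to 21 counts per library in GM at steady state. Without GM-TC replicate 1 the adjusted p on TC was 0.0617, and on noTC it was 0.106 without GM-noTC replicate 2 and 0.0505 without GM-noTC-LPS replicate 1. On noTC, Clec10a (-0.56 ± 0.21) was under the fold limit, and it was called at -0.70 without GM-noTC-LPS replicate 2, -0.71 without M-noTC replicate 2 and -0.66 without M-noTC-LPS replicate 1. Clec5a (-0.56 ± 0.08) was under the limit as well, and it was called at -0.60 without GM-noTC-LPS replicate 1 and -0.64 without M-noTC-LPS replicate 1.

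The comparison of noTC with TC dishes asked how the culture surface set the receptors, and here GM and M cells differed. In M cells, the receptors called were all lower on noTC. At steady state 4 of 10 fell (Clec4n, Clec10a, Clec4a1 and Clec4a3), none rose, and 7.88% of all genes were called, and 2.53% of all genes were called lower on noTC. Upon LPS 5 of 10 fell, with Clec4a2 added, where 5.47% of all genes were called and 1.93% of all genes called lower. These comparisons share libraries with those above. Other markers moved with the dish in M at steady state: Itgax was higher on noTC (47.1 against 15.5 CPM, 1.60 ± 0.08) and Mertk (-1.22 ± 0.08) and Ciita (-0.86 ± 0.11) were lower. Of the 8 LPS check genes, 6 were higher on noTC in M and 7 in GM at steady state. Il6 had 5.69 against 0.0199 CPM in M and 6.77 against 0.252 CPM in GM. The value of Il6 in M-TC lay below the floor of 3 counts, so the size of that difference is uncertain. These 8 genes summed to 156.9 to 162.5 CPM in GM-noTC, 50.08 to 56.65 CPM in GM-TC and 23380 to 24700 CPM in GM-TC-LPS. In M they summed to 265 to 270.8 CPM on noTC, 212 to 216.9 CPM on TC and 28070 to 28990 CPM in M-TC-LPS. The excess of noTC libraries at steady state, given below as a share of the other libraries, was not subtracted from these values. The part of these markers in the dish differences was not tested.

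Clec4n had 4.78 and 4.71 CPM in M-noTC against 9.97 and 9.80 CPM in M-TC, with a log2 fold change of -1.06 ± 0.11 (adjusted p = 2.87e-07), and upon LPS -0.85 ± 0.12 (adjusted p = 3.03e-05). Clec10a fell by 0.97 on the log2 scale at steady state (SE 0.12, adjusted p = 3.49e-06) and by 0.69 upon LPS (SE 0.17, adjusted p = 0.00393). The second of these calls was lost without M-noTC-LPS replicate 1 (adjusted p = 0.0589) or M-TC-LPS replicate 1 (adjusted p = 0.0562). Both genes had no overlap between the dishes in M cells at either treatment, and the share of all genes without overlap was not computed.

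Clec4a1 had 30.5 and 33.2 CPM in M-noTC against 62.6 and 60.9 CPM in M-TC, with a log2 fold change of -0.95 ± 0.08 (adjusted p = 5.03e-09), and -0.77 ± 0.07 upon LPS (adjusted p = 8.81e-08). Clec4a3 had 13.9 and 18.3 CPM in M-noTC, with a log2 fold change of -0.84 ± 0.11 (adjusted p = 6.45e-06), and -0.93 ± 0.13 upon LPS (adjusted p = 1.42e-05). Clec4a2 had 15.4 and 15.3 CPM in M-noTC, with a log2 fold change of -0.46 ± 0.09 that was under the fold limit, and -0.72 ± 0.10 upon LPS (adjusted p = 8.81e-06). Clec4a1 and Clec4a3 were thus called lower on noTC in M cells at both treatments, and Clec4a2 upon LPS alone.

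The other receptors of M cells were not called between the dishes. Clec4d had log2 fold changes of -0.35 ± 0.06 at steady state and -0.51 ± 0.06 upon LPS, Clec5a of -0.29 ± 0.06 and -0.08 ± 0.06, and Clec7a of -0.25 ± 0.06 and 0.00 ± 0.06. Clec4e had -0.04 ± 0.06 (adjusted p = 0.657) and -0.14 ± 0.06 (adjusted p = 0.0913). Clec4b1, at 0.38 ± 0.55 and 0.75 ± 0.87, was too rare to show a difference of this size at this depth.

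**Figure D5:**
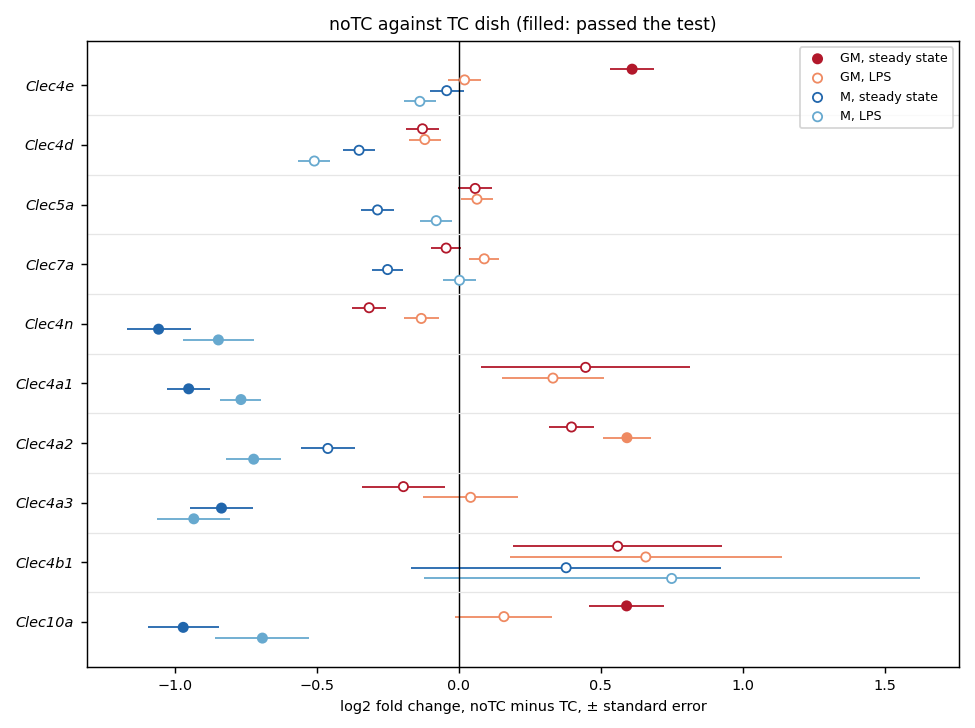
Log2 fold change of noTC over TC dishes (x axis, ± SE) of the 10 receptors in GM and M at steady state and upon LPS, with filled points for calls and open points otherwise. In M the calls lay between -1.06 and -0.69, and in GM the 3 calls lay between 0.59 and 0.61.

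In GM cells, 2 of 10 receptors rose on noTC at steady state (2.55% of genes called, 1.83% higher) and 1 upon LPS (0.871%, 0.695% higher), all close to the fold limit. Clec10a had 12.3 and 11.7 CPM in GM-noTC against 7.12 and 8.70 CPM in GM-TC, with a log2 fold change of 0.59 ± 0.13 (adjusted p = 0.0066). Its call was lost without GM-noTC replicate 1 (adjusted p = 0.0764) and without GM-TC replicate 1 (0.46, under the fold limit). Clec4a2 upon LPS had a log2 fold change of 0.59 ± 0.08 (adjusted p = 0.000155), and it was under the limit without GM-noTC-LPS replicate 1 (0.55) or GM-TC-LPS replicate 2 (0.57). Its steady state value of 0.40 ± 0.08 was not called, with 73.5 and 70.2 CPM in GM-noTC against 48.0 and 60.7 CPM in GM-TC.

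Clec4e had a log2 fold change of 0.61 ± 0.08 in GM (adjusted p = 1.16e-05), which was 0.50 without GM-TC replicate 1. Here a property of the noTC libraries at steady state was measured beside it. Genes that were nearly absent from GM-TC and abundant in the other libraries had a median excess in GM-noTC of 0.675% of their mean in the other libraries (15 genes, 0.39% to 0.907%). The other libraries here were all LPS libraries and those of M-noTC, without M-TC. The excess of Clec4e was 0.664% of its mean in those libraries, within that range. With this share subtracted, the log2 fold change of Clec4e was -0.02 ± 0.08 (adjusted p = 0.935). Clec4a1 had an excess of 0.534% and a log2 fold change of 0.45 ± 0.37 that was not called, and after subtraction -0.20 ± 0.41. The share subtracted was above the excess of either gene, so values near or below 0 were largely fixed in advance. They are not a test. The share in M-noTC, set against all LPS libraries and those of GM-noTC, was 0.6% (median of 19 genes), with a wide range of 0.0084% to 0.845%. The 4 falls of M cells at steady state were called after subtraction too, with Clec4n at -1.69.

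The remaining receptors of GM cells showed no call between the dishes. Clec4n had log2 fold changes of -0.32 ± 0.06 at steady state and -0.13 ± 0.06 upon LPS, Clec7a of -0.04 ± 0.05 and 0.09 ± 0.05, Clec4d of -0.13 ± 0.06 and -0.12 ± 0.06, and Clec5a of 0.06 ± 0.06 and 0.06 ± 0.06. Clec4a3 had -0.20 ± 0.15 and 0.04 ± 0.17, and Clec4b1 had 0.56 ± 0.37 and 0.66 ± 0.48. The heart muscle markers were higher in TC than in noTC libraries at steady state, as given above, and their part in the differences between dishes was not tested.

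The difference between GM and M in the effect of the dish was tested directly. At steady state it was called for 6 of 10 receptors, all with a higher noTC to TC ratio in GM (4.62% of genes, 1.93% in that direction), and upon LPS for 5 of 10, all in that direction (3.98% and 2.17%). For Clec10a it was 1.56 ± 0.18 at steady state (adjusted p = 4.27e-06) and 0.85 ± 0.24 upon LPS (adjusted p = 0.0233). For Clec4a2 it was 0.86 ± 0.12 (adjusted p = 5.92e-05) and 1.32 ± 0.13 (adjusted p = 4.12e-07), for Clec4n 0.74 ± 0.13 (adjusted p = 0.00046) and 0.71 ± 0.14 (adjusted p = 0.00147), and for Clec4a3 0.64 ± 0.18 (adjusted p = 0.0264) and 0.98 ± 0.21 (adjusted p = 0.00373). Clec4a1 had 1.40 ± 0.37 (adjusted p = 0.0168) and 1.10 ± 0.19 (adjusted p = 0.000517), and Clec4e 0.65 ± 0.10 at steady state (adjusted p = 9.09e-05). With the share subtracted, Clec4a1 had 0.76 (adjusted p = 0.305) and Clec4e 0.10 (adjusted p = 0.647) at steady state. These carry over the GM values that the subtraction largely fixed, and are not a separate test.

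Several of these differences rested on single libraries. At steady state Clec4a1 was not called without GM-noTC replicate 1 (adjusted p = 0.108), GM-noTC replicate 2 (0.0524) or GM-TC replicate 1 (0.0741). Clec4a3 was not called without GM-noTC replicate 1 (adjusted p = 0.131), GM-TC replicate 1 (0.0514), M-noTC replicate 1 (0.125) or M-TC replicate 2 (0.101), and Clec4e had 0.55 without GM-TC replicate 1. Upon LPS, Clec10a was not called without GM-noTC-LPS replicate 2 (adjusted p = 0.123), GM-TC-LPS replicate 2 (0.0978), M-noTC-LPS replicate 1 (0.104) or M-TC-LPS replicate 1 (0.1). Clec4a3 was not called without GM-noTC-LPS replicate 2 (adjusted p = 0.0678), and Clec4n had 0.55 without M-noTC-LPS replicate 2 and 0.58 without M-TC-LPS replicate 2.

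Whether the LPS response depended on the dish was tested within each growth factor. In GM 1 of 10 receptors was called (0.495% of genes), Clec4e at -0.59 ± 0.10 (adjusted p = 0.00146). After the subtraction, which largely fixed its steady state difference, the value was 0.04 (adjusted p = 0.956). With no subtraction, Clec4e was under the fold limit without GM-noTC replicate 1 (-0.56), GM-noTC-LPS replicate 2 (-0.57), GM-TC replicate 1 (-0.48) or GM-TC-LPS replicate 2 (-0.54). In M none was called by edgeR (3.52% of genes) or by DESeq2, and 2 receptors had an unadjusted p under 0.05, Clec7a (0.25 ± 0.08, adjusted p = 0.0482) and Clec5a (0.21 ± 0.08, adjusted p = 0.119). After subtraction, Clec4n was called there at 0.84 (adjusted p = 0.00439).

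Of 18 genes from Fcer1g and Syk to the phosphatases, 8 rose and 3 fell upon LPS in GM on TC, 7 and 3 in GM on noTC, and 11 and 2 in M on either dish, beside the 41.6%, 41.1%, 51.7% and 47.8% of all genes called in these comparisons. Between the dishes only Fgr in M at steady state was called, or 1 of 18 beside 7.88% of all genes, and 0 of 18 in GM beside 2.55%. Malt1, of the Card9 complex, had a mean of 165.5 CPM in GM-TC and 1223 CPM in GM-TC-LPS, with a log2 fold change of 2.89 ± 0.05, and 38.2 and 766 CPM in M-TC and M-TC-LPS, one of 4.33 ± 0.06. Card9, the scaffold downstream of Syk, fell by 1.17 in GM-TC (SE 0.09) and by 1.55 in M-TC (SE 0.10), and Inpp5d, a lipid phosphatase, by 2.65 and 2.56 (SE 0.07 each). Between GM and M on TC dishes 4 partners were higher and 5 lower in GM, beside 33.8% of all genes called. Among them Src (4.21 ± 0.10) and Fgr (3.90 ± 0.10) were higher and Ptpn6 (-0.95 ± 0.06) was lower.

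Of 26 other C-type lectins, 14 passed the filter, and most of them were called higher in GM, 11 on TC (33.8% of all genes called in either direction), 11 on noTC (34.2%), 10 upon LPS on TC (40.8%) and 12 upon LPS on noTC (39.7%). Clec12a, an inhibitory receptor, was the only one lower in GM, with a mean of 14.9 CPM in GM-TC and 305 CPM in M-TC, with a log2 fold change of -4.35 ± 0.07. Olr1 had 36.1 and 0.116 CPM and Clec9a, a receptor of dendritic cells for dead cells, 31.46 and 0.248 CPM, log2 fold changes of 8.22 ± 0.18 and 6.94 ± 0.18. The value of Olr1 in M-TC lay at the floor of 3 counts, so the size of its change is uncertain. Mgl2, the neighbour of Clec10a, had 111 CPM in GM-noTC and 0.872 CPM in M-noTC (7.02 ± 0.13), and it rose on noTC in GM at steady state by 0.69 ± 0.08. Mrc1, the mannose receptor, fell on noTC in M, by 0.81 (SE 0.08) at steady state and by 0.78 (SE 0.08) upon LPS. Between dishes 2 of the 14 rose in GM at steady state (2.55% of all genes called) and 1 upon LPS (0.871%), and in M 1 rose and 2 fell at steady state (7.88%) and 1 rose and 1 fell upon LPS (5.47%).

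Likeness of pattern was described over the 8 group means on a log2(CPM + 0.5) scale, which share libraries and scaling, so no p is given. Among the 10 receptors, Clec4n and Clec7a followed each other most closely (Pearson r = 0.986), then Clec4d and Clec4e (r = 0.973), and Clec4a1 and Clec7a were most opposed (r = -0.969). Over all genes tested with a mean of 1 CPM or more, the genes most like Clec4e were Ifi211 (0.9992), Trex1 (0.9991) and Slfn5 (0.9988), and those most like Clec4d were Rab22a (0.9992), Bcl10 (0.9964), itself a signalling partner, and Rnf19a (0.9949). Clec7a was most like Slc36a2 (0.9994), Clec4n most like Ephx1 (0.9985), Clec5a most like Pstpip2 (0.9985) and Clec4a1 most like Frmd4b (0.9955) and Ms4a6b (0.9955). Clec4a3 (0.991), Clec4b1 (0.9897) and Clec4a2 (0.9762) had slightly lower best values, and Clec10a had the lowest, 0.9297 with Tbc1d16.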

How the data were processed

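The members, lists and alternatives were chosen with earlier results of these data known. The authors trimmed reads with fastp 0.18.0, aligned them with HISAT2 and quantified genes with RSEM, by the methods and the submitters' processing notes, and deposited expected counts of 22287 genes without normalization. The build and annotation are not given in the sources used here. Groups came from the labels. Expected counts were rounded, filtered and TMM scaled, and edgeR 4.0.16 (R 4.3.3) fitted 1 quasi-likelihood model over 16 libraries without a block for replicates, at a dispersion of 0.00226, or 4.75% as a coefficient of variation. Calls need a BH-adjusted p under 0.05 and a fold change above 1.5. Of 12 comparisons and 6 tests of a difference between them, all were fitted for all 12514 genes. From each other list at most 3 called genes per direction with the largest change were named. On simulated counts, the fit had to call most of the changed genes for LPS in GM-TC. Far fewer genes were changed there than were called for LPS in the data, so the check is limited. Library totals of 17527802 to 31458363 set the depth. Exon lengths come from GENCODE for mouse GRCm38. Alternatives were DESeq2 1.42.0, other scalings, no filter, other fold limits, the libraries of the comparison alone, a replicate block, a subtraction of the excess measured in steady state noTC libraries and leaving out each library. Correlations of the deviations of libraries with the same replicate number lay between -0.064 and 0.036 over the 12 comparisons, so the numbers were not taken to pair samples. A gene that the naming rule selected is not reported here.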

Additional observations from a re-analysis of the deposited data

Results flagged for a closer look

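The results here are receptors whose response differed between groups in a test of the difference itself, an interaction in the edgeR fit over all 12514 genes. They are given as log2 values without an explanation.

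The LPS response differed between GM and M cells for 3 receptors. The value of GM minus M was 1.96 for Clec4e, 1.14 for Clec4a1 and -1.17 for Clec4a2 on TC dishes. On noTC dishes it was 1.47 for Clec4e, 0.84 for Clec4a1 and -0.72 for Clec4a2. The LPS response differed between dishes in GM cells for Clec4e alone, by -0.59 for noTC minus TC. That value was 0.039 after the subtraction from the steady state noTC libraries (adjusted p = 0.956), an outcome that the subtraction largely fixed. The call was also lost without the expression filter and without each of 4 of the 8 libraries in turn.

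The effect of the dish differed between GM and M cells in most of the lectins of the DCIR family and in Clec4n and Clec10a. At steady state the value of GM minus M was 1.40 for Clec4a1, 0.86 for Clec4a2, 0.64 for Clec4a3, 0.65 for Clec4e, 0.74 for Clec4n and 1.56 for Clec10a. Upon LPS it was 1.10 for Clec4a1, 1.32 for Clec4a2, 0.98 for Clec4a3, 0.71 for Clec4n and 0.85 for Clec10a. Clec10a differed in sign at steady state, with 0.59 in GM and -0.97 in M. After the subtraction from the steady state noTC libraries, 4 receptors were called at steady state. Clec4a1 and Clec4e, whose GM values the subtraction largely fixed, were not. Some calls of Clec4a1, Clec4a3, Clec4e, Clec4n and Clec10a were also lost without single libraries, as given above.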

How the results depend on the processing

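A replicate block kept the call and direction of 149 of 149 receptor values, and the number called was the same in each comparison, such as 9 for GM against M on TC dishes and 4 for the dish in M. With DESeq2's size factors 147 of 149 were kept, with DESeq2 itself 145, and without a filter 147. Depth limits Clec4b1 and, in GM at steady state, Clec4a1. With a fold limit of 2, the receptors called were 5 for GM against M upon LPS on TC, 4 for LPS in GM-TC, 0 for the dish in GM and in GM and M upon LPS, 1 for the dish in M, 1 for growth factor by LPS on noTC, 0 for dish by LPS in GM, and 2 for dish by growth factor at steady state and upon LPS. With no fold limit they were 8 for LPS in M-noTC, 4 for the dish in GM, 8 for the dish in M, 5 and 7 for growth factor by LPS on TC and noTC, and 1 for dish by LPS in M. With the libraries of the comparison alone, the dish in GM gave 1 call at steady state and 0 upon LPS, and without a filter dish by LPS in GM gave 0. After the subtraction the dish in GM gave 1, dish by LPS in GM 0 and dish by LPS in M 1. Leaving out 1 library gave 0 to 2 for the dish in GM, 0 to 1 upon LPS, 2 to 5 for growth factor by LPS on noTC, 0 to 1 for dish by LPS in GM, 3 to 6 for dish by growth factor at steady state and 3 to 5 upon LPS. With 1 library left in a group, it is assumed to vary like the other groups.

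Library size only turned the sign of 10 values, where LPS in M-noTC gave 8 calls and the dish in GM upon LPS 0. Clec4n upon LPS was then -0.63 and -0.32 in M on TC and noTC and -0.45 and -0.29 in GM, and Clec4a2 was -0.12 and -0.28 in M. Clec5a for GM against M on TC was -0.19, Clec5a for the dish in M upon LPS 0.0072, Clec7a for growth factor by LPS on TC 0.10 and Clec4n for the same on noTC 0.029. After subtraction the dish in GM gave -0.20 for Clec4a1 and -0.019 for Clec4e, and dish by LPS in GM gave 0.039 for Clec4e. Clec7a for the dish in M upon LPS was -0.0175 with DESeq2 and -0.0179 with its size factors. Leaving out 1 library gave -0.033 to 0.12 for Clec4n upon LPS in GM-TC, -0.093 to 0.0046 for Clec7a and the dish in GM, -0.22 to 0.26 for Clec4a3 and -0.031 to 0.074 for Clec4e and the dish in GM upon LPS, and -0.40 to 1.40 for Clec4b1 and -0.079 to 0.090 for Clec7a and the dish in M upon LPS. For library size and the subtraction the cause was not tested beyond the shifts given.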
